A study of Mus musculus with 15 samples.

Results

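Ventricles of mice with an induced heart deletion of Acsl1 were compared with ventricles of flox controls 2 weeks after tamoxifen, over 19532 genes and over the single probes behind them. The comparison used 3 knockout arrays and 4 control arrays, 7 of the 15 arrays of the study. The members were the arrays whose labels give the genotype and the time of 2 weeks. The title of the study names a switch of cardiac fuel and growth of the heart under the kinase mTOR, and the early time asks which transcripts differed soon after the deletion.

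The knockouts are labelled Acsl1H-/- and the controls Acsl1flox/flox, and the controls were littermates. All were male mice of the strain given as C57Bl/J6, and both groups received tamoxifen into the peritoneum at 75 mg/kg for 4 days, at 6 to 8 weeks of age. Ventricular RNA of 500 ng was labelled with Cy5 and hybridised with a Cy3-labelled reference RNA from whole neonatal mice of mixed 129Sv and C57BL/6 background. The labels name neither the recombinase nor its promoter, and no group carries a recombinase without the deletion, so an effect of the recombinase and one of the deletion cannot be told apart. The labels call the arrays biological replicates. Acsl1 itself was not analysed here.

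Acsl1 encodes an acyl-CoA synthetase, which joins long-chain fatty acids to coenzyme A so that mitochondria can oxidise them, and the adult heart draws most of its energy from that route. A heart under load or short of fatty acid oxidation is known to use more glucose and to express genes of the fetal heart again, among them the slow myosin heavy chain Myh7 and the natriuretic peptides Nppa and Nppb. The kinase complex mTORC1 promotes protein synthesis and growth of heart muscle cells, in part by phosphorylating the translation repressor encoded by Eif4ebp1. Fibroblasts of the heart make the collagens and other matrix proteins, and they make more of them when the tissue is remodelled.

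The promoters of the 2 cardiac myosin heavy chains and of the 2 natriuretic peptides are shown because the results on fetal genes turn on these 4 genes. Each is a window of 300 bases in RefSeq's GRCm38.p6 build, with 250 bases before the start site and 50 after it, read 5′ to 3′ on the strand of the gene. Capitals mark the MCAT element, searched as CATTCC and as GGAATG, its reverse complement. The element is the binding motif of the TEAD factors of striated muscle. Myh7 is at chr14:54994577-54994876 on the minus strand, Myh6 at chr14:54966558-54966857 on the minus strand, Nppa at chr4:148000472-148000771 on the plus strand and Nppb at chr4:147985650-147985949 on the plus strand. Myh7 had 2 windows, and 1 is shown. It was chosen for holding the most matches to the element, or by position if the windows tied, so its match is partly a result of that choice.
Myh7: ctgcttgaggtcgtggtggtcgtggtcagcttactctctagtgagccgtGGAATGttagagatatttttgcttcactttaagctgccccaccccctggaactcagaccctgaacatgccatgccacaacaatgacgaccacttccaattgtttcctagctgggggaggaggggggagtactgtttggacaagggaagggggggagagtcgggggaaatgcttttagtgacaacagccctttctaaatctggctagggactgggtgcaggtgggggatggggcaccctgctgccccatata
Myh6: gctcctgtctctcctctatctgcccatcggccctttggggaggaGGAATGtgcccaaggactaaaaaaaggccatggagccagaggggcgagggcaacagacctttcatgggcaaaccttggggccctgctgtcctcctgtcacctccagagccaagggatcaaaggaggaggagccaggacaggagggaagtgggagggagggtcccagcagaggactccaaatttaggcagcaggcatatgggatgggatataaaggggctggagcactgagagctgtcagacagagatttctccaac
Nppa: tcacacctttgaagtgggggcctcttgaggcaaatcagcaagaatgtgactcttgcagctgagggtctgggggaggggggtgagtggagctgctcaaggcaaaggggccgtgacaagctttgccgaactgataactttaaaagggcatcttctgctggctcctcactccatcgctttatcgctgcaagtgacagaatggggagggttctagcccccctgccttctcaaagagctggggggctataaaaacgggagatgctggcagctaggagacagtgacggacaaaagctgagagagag
Nppb: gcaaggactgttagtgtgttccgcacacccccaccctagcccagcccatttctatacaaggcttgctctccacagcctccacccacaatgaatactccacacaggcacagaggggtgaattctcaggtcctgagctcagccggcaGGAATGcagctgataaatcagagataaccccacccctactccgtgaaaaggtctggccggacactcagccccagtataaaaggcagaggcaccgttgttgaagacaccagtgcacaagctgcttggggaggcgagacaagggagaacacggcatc
The element began 201 bases before the start site of the Myh7 window shown, 206 bases before that of Myh6 and 105 bases before that of Nppb. The window of Nppa held none. Which start site of Myh7 these hearts used was not tested, so the distances are not compared between genes. It was present in 4817 of 32851 promoter windows of this length, or 14.7%, so a match in a window is a description of the letters and no evidence of binding.

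Values are log2 ratios of heart over reference RNA, processed by the authors. Each probe had been centred on its median over the 15 arrays, so a value says how an array stood against the middle array for that probe and carries no expression level. The labelled tissue could therefore not be checked by the level of heart markers. The dyes in the labels make heart over reference the likely direction of the ratio, but the direction and the log base are not stated. A gene's value is the mean of its probes, and 8511 genes had more than 1 probe. The standard deviation over genes ran from 0.384 to 0.484 between arrays. In tissue RNA, fewer cells of a type and less RNA per cell cannot be told apart.

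Of the spots placed on the array as controls, 2 of 93 separated the genotypes with no overlap at both times. Spot AT_nX_3 lay between 8.07 and 8.40 in the 3 knockouts and between -0.23 and -0.14 in the 4 controls at 2 weeks. Spot AT_nX_5 lay between 6.31 and 6.95 in knockouts and between -0.29 and 0.00 in controls. All 7 knockouts of the study stood above all 8 controls on both spots. What these spots detect is not given in the sources used here, so they do not check the genotype.

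Differences between the groups at 2 weeks were small against their error for most genes. The median log2 difference, knockout minus control, was -0.02, its median size without sign was 0.17, and its median standard error was 0.23. With limma and Benjamini-Hochberg adjustment over all genes, 1 gene passed an adjusted p of 0.05, which is 0.00512% of those tested. This gene was Myh7. The next smallest adjusted p was 0.16, shared by 10 genes. At an unadjusted p under 0.05, 708 genes were higher in knockouts (3.62% of those tested) and 709 were lower (3.63%), or 7.25% in either direction.

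The spread of single arrays gave a similar picture. All 3 knockouts lay above all 4 controls for 832 genes (4.26%) and below them for 882 genes (4.52%), 8.78% in either direction. Among these, 72 genes were at least 2-fold higher (0.369%) and 65 at least 2-fold lower (0.333%). The log2 difference was above 0 for 46.3% of all genes. These shares are the background against which the gene lists below are read.

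**Figure D1:**
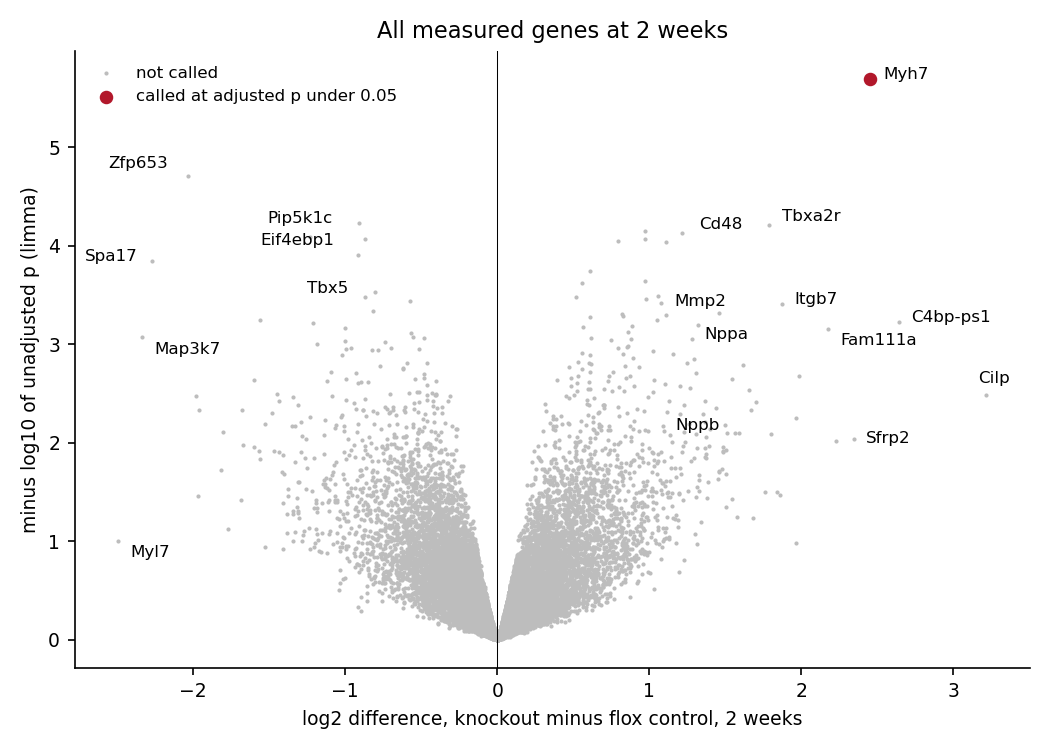
Each of the 19532 genes is a point, with the log2 difference of knockout minus control at 2 weeks on the x axis and the negative log10 of limma's unadjusted p on the y axis. Myh7, at 2.46, stands above all other genes in p, and genes at equal distance from 0 lie on both sides in similar numbers.

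Myh7, the slow beta myosin heavy chain that the fetal ventricle uses, stood at 1.40, 1.45 and 1.59 in the 3 knockouts, against -1.11, -1.33, 0.00 and -1.48 in the 4 controls. The knockouts were close together and all above the controls, of which the third stood apart from the other three by more than 1 log2 unit. Myh7 rose by 2.46 ± 0.31 (log2 difference ± SE, 3 against 4 arrays), 5.49-fold, with a 95% interval from 1.80 to 3.12 and limma's adjusted p = 0.0393. Its 2 probes gave 2.51 and 2.40. The size changed little when any 1 array was left out or another setting was used, from 2.29 to 2.78, but adjusted p passed in 9 of 23 settings and ran from 0.000319 to 0.461. Myh6, the fast alpha myosin heavy chain of the adult heart, was named after its values were seen: it lay between 0.04 and 0.22 in knockouts and between -0.16 and 0.27 in controls, a difference of 0.05 ± 0.10.

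The natriuretic peptides lay higher in knockouts without passing the test. Nppa, which encodes atrial natriuretic peptide, stood at 0.98, 0.36 and 1.38 in knockouts, against 0.40, -0.32, -0.75 and -0.81 in controls. The first control overlapped the second knockout, and the difference was 1.28 ± 0.30 (limma adjusted p = 0.366). Nppb, the gene of brain natriuretic peptide, stood at 0.28, -0.28 and 0.19 in knockouts, against -1.96, 0.00, -1.02 and -1.11 in controls. Here the second control overlapped the second knockout, and the difference was 1.09 ± 0.34 (limma adjusted p = 0.526).

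The array with the highest Nppa among the controls was also the highest for atrial genes. Myl7, the atrial regulatory myosin light chain, stood at 0.26, -1.61 and -1.27 in knockouts, against 5.98, 0.00, 3.01 and -2.49 in controls. Myl4, the atrial essential light chain, stood at 0.04, -0.90 and -0.09 in knockouts, against 3.62, -0.03, 0.88 and -0.42 in controls. Both genes spread over the controls far more than over the knockouts, with the first control at the top. The mean over 20 atrial and conduction markers was -0.05, -0.07 and 0.20 in knockouts and 0.98, 0.02, 0.24 and -0.16 in controls, and 9 of the 20 lay above 0. Without the first control, Nppa differed by 1.54 (limma adjusted p = 0.186) and its groups did not overlap. That control was the highest and the only one to overlap a knockout. Leaving it out therefore had to part the groups and enlarge the difference, so this fit says nothing on atrial tissue. Over all alternatives its adjusted p ran from 0.183 to 1. The part of atrial tissue in these values was not tested.

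Other genes of the fetal and hypertrophy list divided in direction. Of 30 measured genes, 19 lay above 0, with a median of 0.18 against -0.02 over all genes. The median was 0.09 without the third knockout and 0.30 without the second, and 0.03 over the listed genes with 1 probe only. Unadjusted p was under 0.05 for 7 higher genes (23.3% of the list, against 3.62% of all genes) and for 1 lower gene. The knockouts lay above all controls for 6 of them (20.0%, against 4.26%) and below them for 2 (6.67%, against 4.52%).

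Ankrd1, a stress-responsive repeat protein of the sarcomere and nucleus, stood at 0.00, -0.17 and 0.42 in knockouts, against -0.83, -0.25, -0.19 and -0.47 in controls. Ccn2, connective tissue growth factor, stood at 0.68, 0.66 and 1.02 in knockouts, against 0.54, 0.18, 0.00 and 0.36 in controls. In both genes the groups did not overlap, by a narrow margin. The differences were 0.52 ± 0.21 for Ankrd1 and 0.51 ± 0.18 for Ccn2.

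Rcan1, an inhibitor of the phosphatase calcineurin and a reporter of its activity, stood at 0.71, -0.03 and 1.46 in knockouts, against -0.19, -0.29, -0.05 and -0.11 in controls. The second knockout barely cleared the controls, and the 2 probes of Rcan1 disagreed, at 1.59 and 0.15. Acta1, skeletal alpha-actin, which the fetal heart also makes, stood at 0.22, -0.22 and 0.98 in knockouts and between -0.41 and 0.00 in controls. The second knockout lay within the controls, and the difference was 0.50 ± 0.25 (limma adjusted p = 0.711). Actn1, a non-muscle alpha-actinin, gave 0.98 ± 0.60, with the 3 knockouts between 0.33 and 0.45 and the controls between -1.29 and 0.22. Csrp3, the muscle LIM protein that senses stretch at the Z-disc, was the listed gene with knockouts below all controls at an unadjusted p under 0.05. It stood at -0.16, -0.19 and -0.08 in knockouts, against 0.00, 0.14, 0.05 and 0.14 in controls, a difference of -0.22 ± 0.09.

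**Figure D2:**
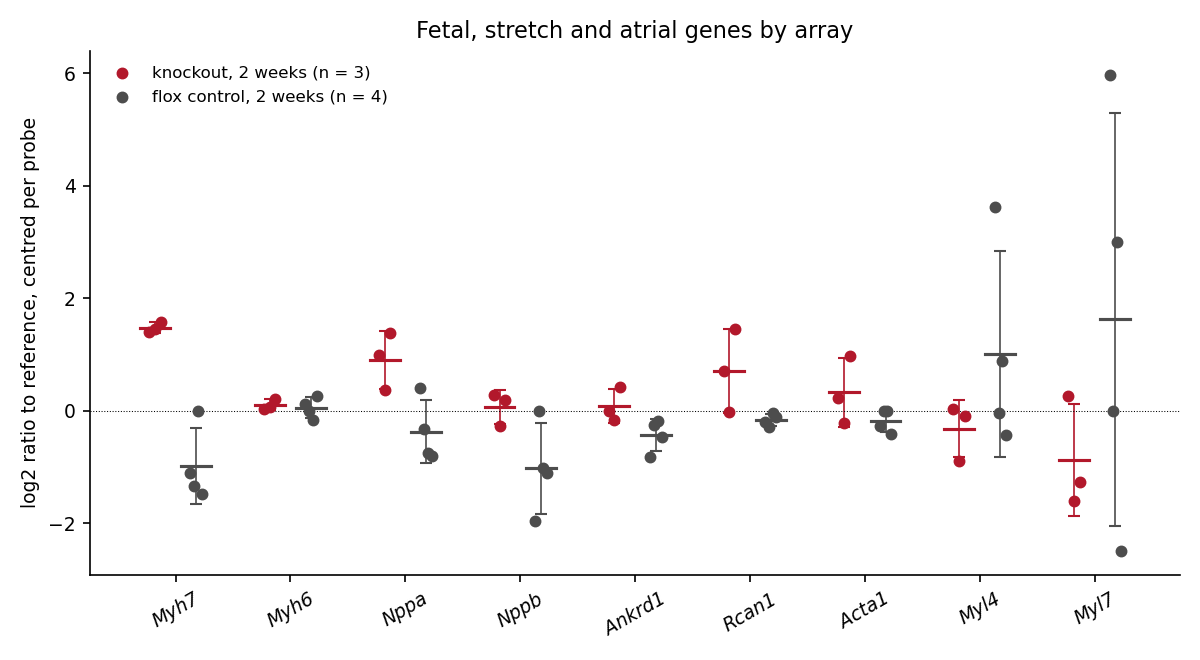
Points are the centred log2 ratios of single arrays for 9 fetal, hypertrophy and myosin genes, with the 3 knockouts left of the 4 controls for each gene and bars for the mean ± SD. Myh7 shows knockouts from 1.40 to 1.59 above controls from -1.48 to 0.00, while Myh6 overlaps and the atrial Myl4 and Myl7 spread widest in the controls.

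Among the other genes with the smallest p above 0, Tbxa2r, the thromboxane receptor, stood at 1.44, 1.71 and 1.57 in knockouts, against -0.57, -0.22, -0.07 and 0.00 in controls. The groups lay more than 1 log2 unit apart, and the difference was 1.79 ± 0.31 (limma adjusted p = 0.16). Itgb7, an integrin chain of leukocytes, stood at 2.27, 1.77 and 2.16 in knockouts, against 0.22, -0.15, 1.10 and -0.40 in controls. Igfbp6, which binds insulin-like growth factors, stood at 0.79, 0.41 and 0.76 in knockouts, against -0.38, -0.45, -0.26 and -0.60 in controls. In each of these the groups did not overlap, with differences of 1.87 ± 0.40 for Itgb7 and 1.07 ± 0.23 for Igfbp6. C1ra, a protease that starts the complement cascade, stood at 0.66, 0.59 and 0.90 in knockouts, against -0.09, -0.04, -0.54 and -0.36 in controls. It differed by 0.97 ± 0.17 (limma adjusted p = 0.16).

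Further genes of this kind were Endod1 at 0.79, the Ras activator Rasgrp3 at 0.61, the neuropeptide receptor Npbwr1 at 1.06, the selectin ligand Glycam1 at 0.98 and the ciliary Bbs2 at 1.46, all log2 differences with no overlap. Beside Tbxa2r and Itgb7, the largest separated differences above 0 were those of the pseudogene C4bp-ps1 (2.64), Myh7, the Wnt-binding Sfrp2 (2.35), Itgbl1 (2.23), the protease Fam111a (2.18), the cardiotrophin gene Ctf2 (1.76), the endothelial proteoglycan Esm1 (1.70) and the methyltransferase Inmt (1.67). C4bp-ps1 stood at 1.48, 0.51 and 0.00 in knockouts, against -1.89, -2.37, -2.10 and -1.55 in controls. The knockouts of C4bp-ps1 spread over more than 1 log2 unit but stayed above every control.

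On the other side of 0, Zfp653, a zinc finger repressor of transcription, stood at -0.54, -0.77 and -0.64 in knockouts, against 1.38, 1.41, 1.40 and 1.35 in controls. Both groups were tight and lay nearly 2 log2 units apart, a difference of -2.04 ± 0.31 (limma adjusted p = 0.16). When the 2-week arrays were fitted alone, Zfp653 passed (limma adjusted p = 0.00367), and its adjusted p ran from 0.00108 to 1 over the alternatives. Aoc2, an amine oxidase, stood at -0.45, -0.43 and -0.60 in knockouts, against 1.36, 0.38, 0.40 and 0.82 in controls, a difference of -1.23 ± 0.22. Pip5k1c, a kinase that makes the phosphoinositide PIP2, stood at -0.69, -0.82 and -0.61 in knockouts, against 0.31, -0.10, 0.13 and 0.48 in controls, a difference of -0.91 ± 0.16. For Aoc2 and Pip5k1c, too, every knockout lay below every control.

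Map3k7, the kinase TAK1 of TGF-beta and cytokine signalling, stood at -1.74, -1.57 and -1.49 in knockouts, against 0.93, 0.32, 1.06 and 0.64 in controls. Its groups lay more than 1 log2 unit apart, and the difference was -2.34 ± 0.54 (limma adjusted p = 0.366). Other separated genes below 0 were the sperm protein gene Spa17 (-2.27), the coregulator Cited1 (-1.96), the testis protease Prss55 (-1.56), the liprin Ppfia4 (-1.21), Tmem40 (-0.92) and Fam131a (-0.57).

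Eif4ebp1 and Tbx5 were also among the genes with the smallest p. Eif4ebp1, the translation repressor that mTORC1 phosphorylates, stood at -0.76, -0.37 and -0.42 in knockouts, against 0.55, 0.35, 0.29 and 0.22 in controls. Tbx5, a transcription factor of cardiac development and conduction, stood at -0.37, -0.17 and -0.41 in knockouts, against 0.66, 0.17, 0.54 and 0.84 in controls. Neither gene's groups overlapped, with differences of -0.87 ± 0.16 for Eif4ebp1 (limma adjusted p = 0.16) and -0.87 ± 0.18 for Tbx5 (limma adjusted p = 0.317). In each gene 1 of 2 probes carried the difference: the probes of Eif4ebp1 gave -1.58 and -0.16, and those of Tbx5 gave -1.57 and -0.17. Eif4enif1, which carries the cap-binding factor eIF4E into the nucleus, differed by -0.82 ± 0.18, with 1 of its 3 probes at -1.90 and the others at -0.37 and -0.19.

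Tested singly, 5 of the 32664 probes with 1 gene symbol passed limma's adjusted p of 0.05, or 0.0153%, and 6.87% had an unadjusted p under 0.05. Both probes of Myh7 were among them, each with adjusted p = 0.0244. The first probe of Cd48, a surface protein of leukocytes, stood at 2.70, 2.27 and 1.53 in knockouts and between -0.13 and 0.18 in controls. This probe of Cd48 rose by 2.13 ± 0.22 (limma adjusted p = 0.00859), while the second probe of Cd48 differed by 0.31 ± 0.32. The gene value of 1.22 is the mean of both.

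The probe of Snx12, a sorting nexin of endosomes, stood at 1.13, 0.79 and 0.72 in knockouts, against -0.13, -0.20, -0.28 and -0.16 in controls. It rose by 1.07 ± 0.13 (limma adjusted p = 0.0244), and the other 3 probes of Snx12 gave 0.12, -0.51 and -0.07. The probe of Mast4, a kinase linked to microtubules, stood at 1.55, 2.29 and 1.66 in knockouts, against -0.24, -0.19, -0.32 and 0.44 in controls. It rose by 1.91 ± 0.25 (limma adjusted p = 0.0244), and the other 5 probes of Mast4 ran from -0.36 to 0.42. So Myh7 was the gene for which every probe passed, and for Cd48, Snx12 and Mast4 a single probe did.

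Disagreement between probes was common among the genes with small p. Of the 51 genes at an unadjusted p under 0.001 (0.261% of all), 31 were higher in knockouts and 20 lower, and 23 had more than 1 probe. In 14 of these 23 genes the probes lay over 1 log2 unit apart, and in 5 they lay within 0.5. Nosip, an interaction partner of nitric oxide synthase, gave 2.22 and 0.00 from its 2 probes. Apbb1ip, an adaptor in integrin activation, gave 2.15 and 1.96 from 2 probes and -0.27 and 0.04 from the other two. Gsta3, a glutathione transferase, gave -1.22 and -0.26. Outside the 51 genes, Fkbp11, a prolyl isomerase of the endoplasmic reticulum, gave -2.17 and -0.30, and its gene value had limma's unadjusted p = 0.00541.

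Mouse probes without a gene name added 3 calls among 8465 (0.0354%), when tested with the others over 41129 mouse probes, of which 8 passed in all (0.0195%). All 3 fell, with log2 differences of -3.29, -3.16 and -3.06 (limma adjusted p = 0.00123, 3.18e-07 and 3.18e-07). They lay between -3.39 and -2.58 in knockouts and between 0.00 and 0.44 in controls. They carry no gene name here.

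Among the 45 gene lists, the medians farthest from 0 at 2 weeks were those of fibroblast markers and of the extracellular matrix, which share 10 genes. Of 44 matrix genes, 40 lay above 0 (90.9%, against 46.3% of all genes), with a median log2 difference of 0.47. Unadjusted p was under 0.05 for 18 of them, all higher (40.9%, against 3.62%), and the knockouts lay above all controls for 7 (15.9%, against 4.26%). Of 25 fibroblast markers, 23 lay above 0, with a median of 0.50. Here 11 markers were higher at an unadjusted p under 0.05 (44.0%) and 8 had no overlap (32.0%), with 0 lower by either rule. No member of either list passed after adjustment over all genes.

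The mean over the matrix genes was 0.21, 0.54 and 0.98 in knockouts, against 0.40, -0.05, -0.14 and -0.40 in controls. The first control overlapped the lowest knockout. The mean over the fibroblast markers was 0.27, 0.46 and 0.90 in knockouts, against 0.25, -0.04, -0.22 and -0.26 in controls. These did not overlap, though the lowest knockout and the highest control were nearly equal.

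The first control and the third knockout stood at the ends of both lists, so counts are also given without them. Without the first control, 39 matrix genes lay above 0 with a median of 0.57, and 21 had no overlap, against 6.56% of all genes. The first control was the highest control for both list means. Leaving it out thus favours larger counts and medians, and the share of all genes does not allow for that choice. Without the third knockout, 37 lay above 0 with a median of 0.30, and 7 had no overlap, against 7.54% of all genes. Without both arrays, 36 lay above 0, with a median of 0.38. For the fibroblast markers, those above 0 numbered 24 without the first control, 20 without the third knockout and 21 without both, with medians of 0.59, 0.30 and 0.43. Both medians stayed above 0 in these settings, and both were smallest without the third knockout.

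**Figure D3:**
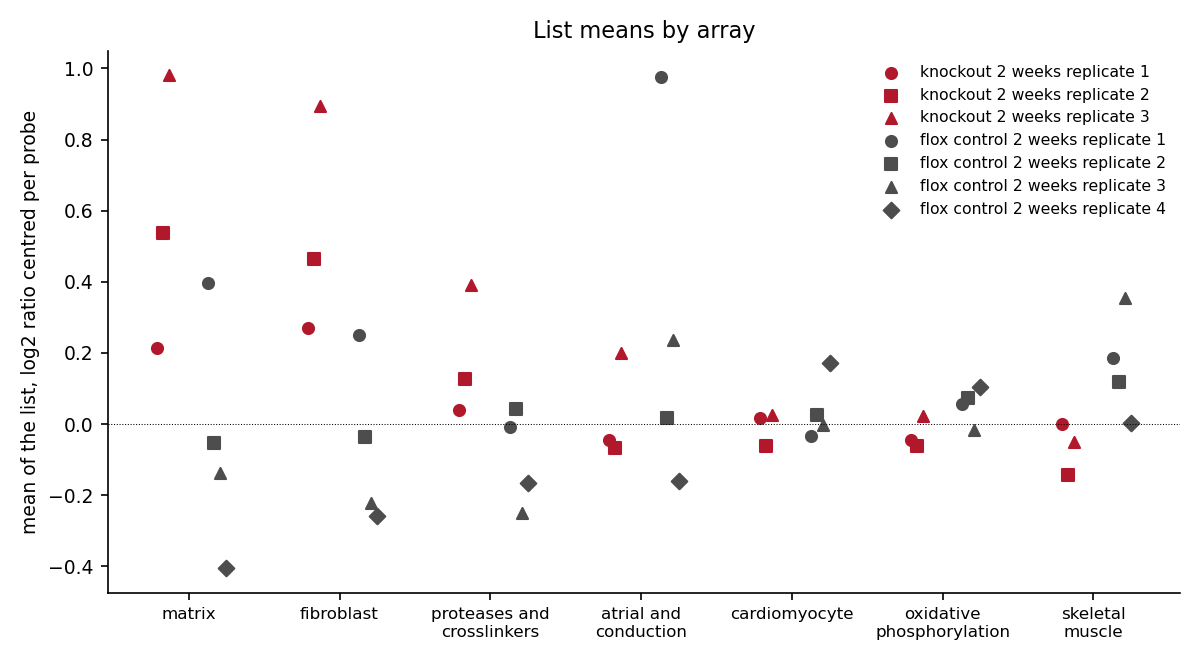
Points are the means over the members of 7 gene lists on each 2-week array, in centred log2 ratios, with the 3 knockouts left of the 4 controls. The matrix and fibroblast means span 0.21 to 0.98 over the knockouts and -0.40 to 0.40 over the controls, and the atrial mean is highest, at 0.98, in 1 control.

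Within the matrix list, all 14 collagens lay above 0, with a median of 0.42 and a range from 0.08 to 1.06. Col8a1, a short-chain collagen of vessels and remodelling tissue, stood at 0.36, 0.69 and 1.25 in knockouts, against 0.02, -0.51, -0.14 and -0.51 in controls. It differed by 1.05 ± 0.23 with no overlap, and it was the collagen with no overlap. All 7 small leucine-rich proteoglycans, which space collagen fibrils, lay above 0 with a median of 0.35. Lum, lumican, stood at 0.60, 0.69 and 1.40 in knockouts, against 0.47, 0.00, -0.67 and -0.32 in controls, and differed by 1.03 ± 0.27.

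Of 7 fibulins and microfibril proteins, which build elastic fibres, 6 lay above 0 with a median of 0.76. Fbln1, fibulin 1, stood at 0.67, 0.77 and 1.71 in knockouts, against 0.27, -0.34, -0.33 and -0.60 in controls, and differed by 1.30 ± 0.32. Mfap5, a microfibril glycoprotein, stood at 0.60, 1.42 and 2.24 in knockouts, against 1.09, 0.00, -0.99 and -1.85 in controls. For Mfap5 the first control lay above the first knockout, and the difference was 1.86 ± 0.79. Efemp1, a fibulin, was the exception of the group at -0.53 ± 0.39.

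Matricellular proteins, which modulate contacts between cells and matrix, lay above 0 in 8 of 10 cases, with a median of 0.41. Cilp, a matrix protein of cartilage that activated heart fibroblasts also make, stood at 0.82, 2.72 and 3.69 in knockouts, against 1.07, -0.18, -1.88 and -2.25 in controls. It had the largest difference on the list, 3.22 ± 0.90, but its first control lay above its first knockout and limma's adjusted p was 0.468. Sulf1, which trims heparan sulfate, stood at 0.68, 0.41 and 1.06 in knockouts, against 0.04, -0.02, -0.26 and -0.17 in controls.

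The enzymes that cut and crosslink matrix were a mixed group. Of 34 measured, 21 lay above 0, with a median of 0.12. At an unadjusted p under 0.05, 8 were higher (23.5%, against 3.62% of all genes) and 0 lower. Mmp2, a gelatinase, stood at 0.40, 1.00 and 1.34 in knockouts, against -0.19, 0.01, -0.10 and -0.50 in controls. Mmp14, the membrane protease that activates the Mmp2 protein, stood at 0.82, 0.69 and 0.59 in knockouts, against -0.02, -0.32, 0.04 and -0.33 in controls. Adamts5, which cleaves proteoglycans, stood at 1.09, 0.19 and 0.72 in knockouts, against -0.18, -0.18, -0.36 and -0.18 in controls. These 3 proteases had no overlap, with differences of 1.11 ± 0.24 for Mmp2, 0.85 ± 0.20 for Mmp14 and 0.89 ± 0.20 for Adamts5. Loxl1, a crosslinker of elastin, differed by 1.02 ± 0.28, and its first control lay above its first knockout.

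Among fibroblast markers outside the matrix list, Dpep1, a membrane dipeptidase, stood at 0.29, 0.58 and 0.46 in knockouts, against -0.37, -0.94, -0.03 and -0.06 in controls. It differed by 0.79 ± 0.19 with no overlap, while Scara5, a ferritin receptor of resting fibroblasts, gave -0.14 ± 0.16. The signals that act on fibroblasts did not lean to either side: of 41 TGF-beta and BMP genes, 21 lay above 0, with a median of 0.02. Tgfb1, the ligand, differed by 0.33 ± 0.14, and Ltbp2, a matrix protein of the latent TGF-beta binding family, by 1.80 ± 0.58. Bmp7, a ligand of the BMP branch, differed by -0.83 ± 0.30 with every knockout below every control, and Acvr2b, an activin receptor, by -1.31 ± 0.52 with overlap.

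List medians moved with single arrays. When each array was left out in turn, the medians of 25 of the 45 lists changed sign, 17 kept their sign but moved by over 1.5 times, and 3 stayed within 1.5 times. The 3 were oxidative phosphorylation, adipocyte markers and nerve and Schwann cell markers. The matrix and fibroblast medians ran from 0.30 to 0.62 and from 0.30 to 0.70.

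**Figure D4:**
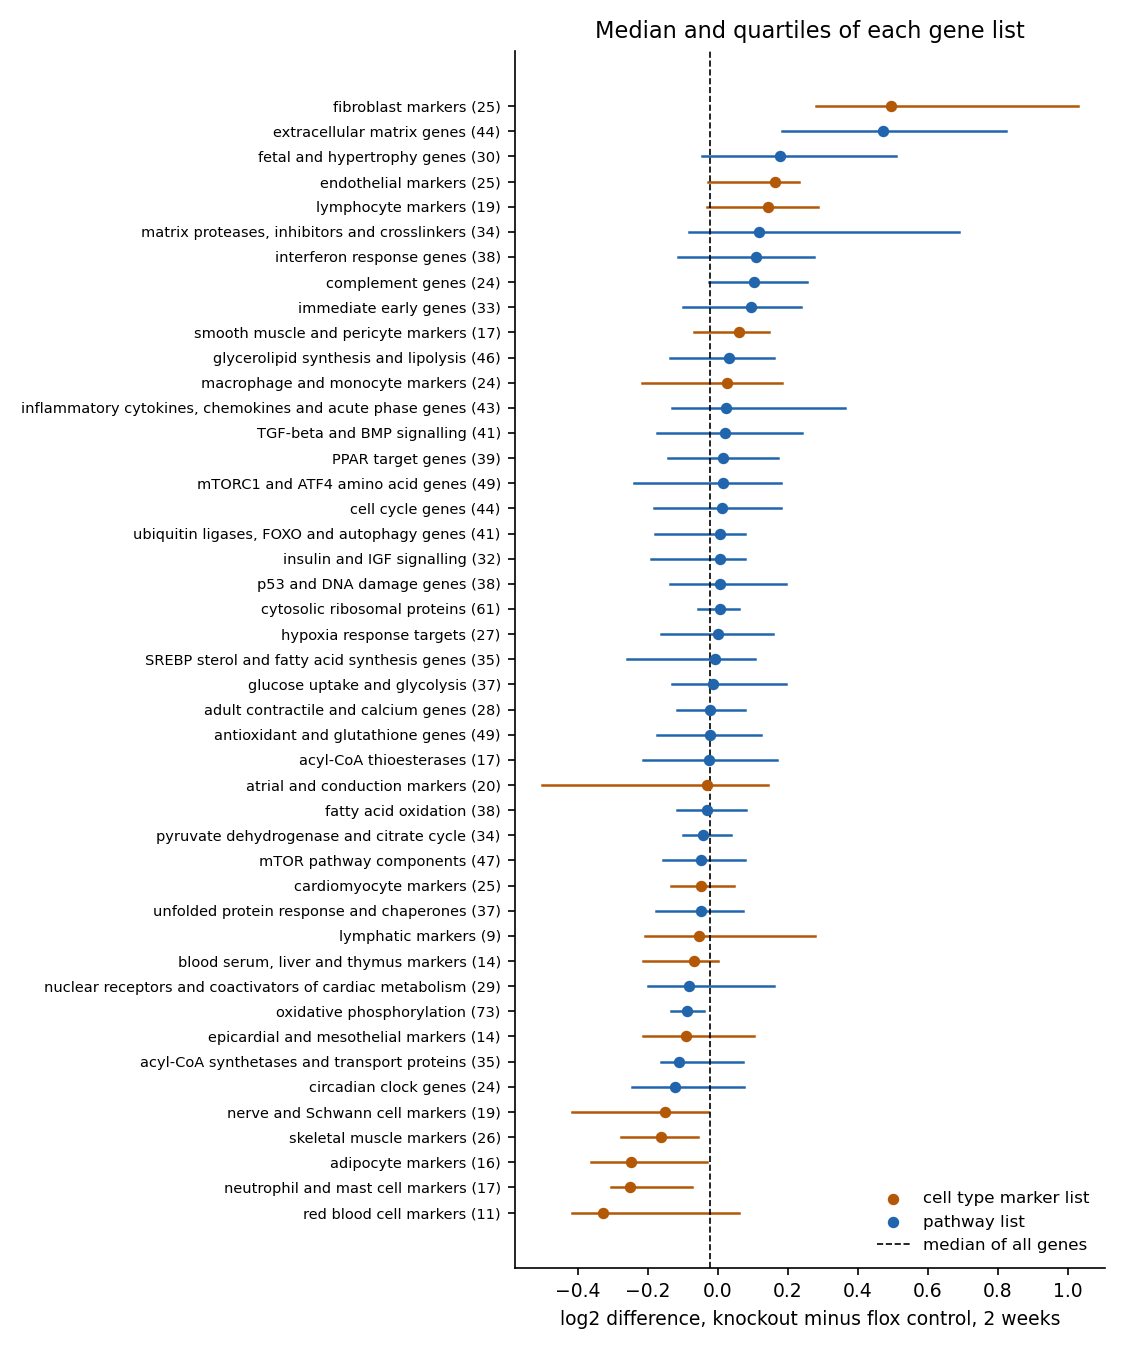
For each of the 45 gene lists, a point marks the median log2 difference of knockout minus control at 2 weeks over its measured members and a bar the quartiles, with a dashed line at the median of all genes, -0.02. The fibroblast markers at 0.50 and the matrix genes at 0.47 lie farthest to the right, and most pathway lists lie close to the dashed line.

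Of 38 genes of fatty acid oxidation, 17 lay above 0, with a median of -0.03, and with limma 0 of them had an unadjusted p under 0.05 or passed after adjustment. Of 39 targets of the PPAR receptors, which induce fatty acid use, 20 lay above 0, with a median of 0.02. Pdk4, the kinase that shuts pyruvate dehydrogenase and a PPAR target, stood at 0.12, -0.09 and 0.00 in knockouts, against 0.24, -0.49, -1.30 and -0.92 in controls. Its first control lay above all knockouts, and the difference was 0.63 ± 0.37. Acot2, a mitochondrial thioesterase that splits acyl-CoA, stood at 0.11, 0.55 and 0.00 in knockouts, against 0.20, -0.64, -0.43 and -0.35 in controls, a difference of 0.52 ± 0.20.

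Other PPAR targets lay on the other side of 0. Slc25a34, a mitochondrial carrier, stood at -0.61, -0.38 and -0.42 in knockouts, against 0.05, 1.06, 0.04 and 2.37 in controls. Lpl, the lipase that frees fatty acids from lipoproteins, stood at -0.17, -0.04 and -0.34 in knockouts, against 0.05, 0.07, 0.10 and 0.28 in controls. For both genes the knockouts lay below all controls, with differences of -1.35 ± 0.42 for Slc25a34 and -0.31 ± 0.13 for Lpl. Cidec, a lipid droplet protein, differed by -0.99 ± 0.40, and Cyp1a1, a target of the aryl hydrocarbon receptor placed on this list, by -1.29 ± 0.44. Plin5, the droplet coat of oxidative tissue, gave 0.29 ± 0.12 with every knockout above every control.

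Of 35 acyl-CoA synthetases and transport proteins, which bring in and activate fatty acids, 11 lay above 0 (31.4%, against 46.3% of all genes), with a median of -0.11. The median was -0.04 without the third knockout. Fabp3, which carries fatty acids through the heart cell, differed by 0.22 ± 0.11 and Acbd5, an acyl-CoA binding protein of peroxisomes, by 0.45 ± 0.17. Acot4, a peroxisomal thioesterase, gave -0.54 ± 0.23, so Acot2 and Acot4 had opposite signs.

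Glucose use had 4 higher genes at an unadjusted p under 0.05 among 37 (10.8%, against 3.62% of all genes) and 1 lower (2.7%, against 3.63%). The median was -0.01, but -0.05 without the first control and 0.07 without the first knockout. Slc2a3, a glucose transporter, stood at 0.38, 0.57 and 0.50 in knockouts, against -0.10, 0.38, 0.07 and 0.05 in controls. Pgam1, phosphoglycerate mutase, stood at 0.25, 0.52 and 0.63 in knockouts, against -0.25, -0.15, 0.24 and -0.15 in controls. The groups of both genes met at their edges without overlap, and the differences were 0.39 ± 0.12 for Slc2a3 and 0.55 ± 0.17 for Pgam1. Pfkfb4, which makes an activator of glycolysis, gave 0.49 ± 0.19, and Tpi1, triose phosphate isomerase, gave -0.81 ± 0.35.

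Genes of oxidative phosphorylation lay slightly low as a group. Of 73 measured, 9 lay above 0 (12.3%, against 46.3% of all genes), with a median of -0.09, and 6 had knockouts below all controls (8.22%, against 4.52%). Unadjusted p was under 0.05 for 1 lower gene (1.37%, against 3.63% of all genes) and 0 higher. The lower gene was Cox7b, a subunit of cytochrome c oxidase, at -0.21 ± 0.09. In complex I 33 of 36 genes lay below 0, in complex III and cytochrome c 9 of 10, in complex IV 10 of 13 and in ATP synthase 12 of 14, with medians of -0.07, -0.08, -0.09 and -0.11. The mean over the list was -0.04, -0.06 and 0.02 in knockouts, against 0.06, 0.07, -0.02 and 0.10 in controls. The third knockout and the third control overlapped, and without the third knockout 22 genes had knockouts below all controls, against 8.74% of all genes. The third knockout was the highest knockout for this list. Leaving it out thus favours a larger count, and the share of all genes does not allow for that choice. The 34 genes of pyruvate dehydrogenase and the citrate cycle had a median of -0.04.

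Genes tied to mTOR were split. Of 49 genes that mTORC1 and ATF4 induce, chiefly for amino acid uptake and synthesis, 26 lay above 0 with a median of 0.01. In each direction 2 had an unadjusted p under 0.05 (4.08%, against 3.62% of all genes higher and 3.63% lower). Slc1a5, a glutamine transporter, stood at 0.31, 0.49 and 0.77 in knockouts, against -0.19, -0.25, 0.01 and -0.38 in controls. Phgdh, the first enzyme of serine synthesis, stood at 0.18, 0.20 and 0.32 in knockouts, against -0.22, -0.28, 0.08 and -0.54 in controls. The groups did not overlap for either gene, with differences of 0.73 ± 0.19 for Slc1a5 and 0.48 ± 0.19 for Phgdh. Gpt2, a transaminase, gave -0.48 ± 0.22. Of 47 components of the mTOR pathway, 20 lay above 0 with a median of -0.05. At an unadjusted p under 0.05, 1 component was higher (2.13%, against 3.62% of all genes) and 1 lower (2.13%, against 3.63%). The higher was Rragc, a GTPase that brings mTORC1 to lysosomes, at 0.47 ± 0.21, and the lower was Eif4ebp1. Insulin and IGF signalling had a median of 0.01 over 32 genes. There the PI3-kinase subunits Pik3cb and Pik3r1 gave -0.88 ± 0.26 and -0.68 ± 0.23, and the binding protein Igfbp7 gave 0.70 ± 0.20. Over the alternatives, which include the choice of probe, Pik3cb ran from -1.84 to -0.69 and Pik3r1 from -1.09 to -0.51.

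Lipid synthesis genes were few among the small p. Srebf1, which switches on genes of fatty acid synthesis, stood at 0.10, 0.14 and 0.09 in knockouts, against 0.00, -0.43, -0.22 and -0.14 in controls, a difference of 0.31 ± 0.12 with no overlap. Mvd, an enzyme of sterol synthesis, gave -1.13 ± 0.46, also with no overlap. The list of 35 sterol and fatty acid synthesis genes had a median of -0.01. Among 46 genes of glycerolipid synthesis and lipolysis, with a median of 0.03, Agpat4, an acyltransferase, gave 0.65 ± 0.21 and Lpin1, a phosphatidate phosphatase and coactivator, gave -0.27 ± 0.09.

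Stress lists differed in which way their members leaned. Of 37 genes of the unfolded protein response, 5 were lower at an unadjusted p under 0.05 (13.5%, against 3.63% of all genes) and 0 higher, with a median of -0.05. Atf6, a sensor of the response, stood at -0.08, -0.35 and -0.12 in knockouts, against 0.27, 0.15, 0.33 and 0.14 in controls. The chaperone Canx differed by -0.25 ± 0.09, the chaperone Hspa5 by -0.42 ± 0.16 and the co-chaperone Dnajb9 by -0.56 ± 0.24. Knockouts lay below all controls for Atf6 and Canx, and overlapped for Hspa5 and Dnajb9.

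In the list of p53 and DNA damage genes, 7 of 38 had knockouts below all controls (18.4%, against 4.52%) and 4 above them (10.5%, against 4.26%), with a median of 0.01. Gadd45a, a growth arrest protein, stood at -0.34, -0.39 and -0.73 in knockouts, against -0.05, 0.03, -0.30 and -0.06 in controls. Mdm2, the ligase that degrades p53, gave -0.46 ± 0.16 and Ppm1d, a phosphatase of the same response, -0.53 ± 0.18, whereas Phlda3, an inhibitor of Akt, gave 0.47 ± 0.15. Of 49 antioxidant and glutathione genes, 4 were lower at an unadjusted p under 0.05 (8.16%, against 3.63% of all genes) and 1 higher (2.04%, against 3.62%). Mgst2, a microsomal glutathione transferase, stood at -0.68, -0.50 and -0.42 in knockouts, against 1.54, -0.02, 0.49 and 0.22 in controls. Gstk1, a mitochondrial and peroxisomal transferase, gave -0.41 ± 0.12, Mgst1 gave -0.39 ± 0.15, and Gpx3, the plasma glutathione peroxidase, gave 0.50 ± 0.22.

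Cytokine, chemokine and complement genes with an unadjusted p under 0.05 lay above 0. Of 43 cytokine, chemokine and acute phase genes, 6 were higher at an unadjusted p under 0.05 (14.0%, against 3.62% of all genes) and 0 lower. Their median was 0.02. Ccl21a, a chemokine of lymphatic vessels, stood at 0.61, 0.00 and 0.25 in knockouts, against -0.72, -1.23, -0.45 and -0.54 in controls. Il6ra, the receptor of interleukin 6, stood at 0.53, 1.66 and 0.54 in knockouts, against -0.22, 0.47, 0.11 and -0.55 in controls. Both had no overlap, with differences of 1.02 ± 0.25 for Ccl21a and 0.96 ± 0.35 for Il6ra. The adhesion molecule Icam1 gave 0.47 ± 0.16 and the chemokine Cxcl16 gave 1.05 ± 0.40, each with overlap. Of 24 complement genes, 17 lay above 0 with a median of 0.10. In 3 of them the knockouts lay above all controls (12.5%, against 4.26% of all genes). Among the 3 were C1ra and Serping1, the inhibitor of C1, at 0.61 ± 0.15. Of 38 interferon response genes, 1 was higher at an unadjusted p under 0.05 (2.63%, against 3.62%), Cxcl10, a chemokine, at 0.40 ± 0.17. In 1 other every knockout lay below every control (2.63%, against 4.52%), Ddx58, an RNA sensor named after its values were seen.

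Markers of other cells were measured beside these results. Over the 45 lists, the list means of knockouts and controls did not overlap for 9 (20%, beside 8.78% of single genes). The knockouts lay above for 5 and below for 4. Some lists share members, so these are not independent results. The mean over 19 lymphocyte markers was 0.16, 0.24 and 0.15 in knockouts, against -0.01, 0.01, 0.04 and 0.09 in controls, without overlap. Their median difference was 0.14, or 0.04 without the second knockout, and Cd3g, a chain of the T cell receptor complex, gave 0.36 ± 0.11. The mean over 24 macrophage and monocyte markers was -0.26, 0.07 and 0.02 in knockouts, against 0.10, -0.08, -0.08 and -0.27 in controls. These overlapped fully, with the complement gene C1qa of macrophages at 0.35 ± 0.23 and the scavenger receptor Cd163 at -0.61 ± 0.26. Mast cell carboxypeptidase Cpa3 gave -1.31 ± 0.61, in a neutrophil and mast cell list with 2 of 17 above 0 and a median of -0.25, or -0.10 without the third control. The part of these cells in the results on immune genes was not tested.

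Of 25 endothelial markers, 16 lay above 0 with a median of 0.16, or 0.08 without the third knockout. Their mean was 0.11, 0.13 and 0.21 in knockouts, against 0.09, 0.06, 0.02 and -0.07 in controls, without overlap. At an unadjusted p under 0.05, 2 were higher (8%, against 3.62% of all genes), namely Cd34 at 0.53 ± 0.20 and the angiopoietin receptor Tek at 0.58 ± 0.23. The 17 smooth muscle and pericyte markers had a median of 0.06, and Acta2, the smooth muscle actin that activated fibroblasts also make, gave -0.25 ± 0.14. Of 25 cardiomyocyte markers, 9 lay above 0 with a median of -0.05, and the mean over them was 0.02, -0.06 and 0.03 in knockouts, against -0.03, 0.03, 0.00 and 0.17 in controls. Ckmt2, mitochondrial creatine kinase, gave -0.23 ± 0.09. Among 28 adult contractile and calcium genes, with a median of -0.02, Kcnd2, a potassium channel of repolarisation, gave -0.93 ± 0.24 with every knockout below every control.

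Markers of skeletal muscle, nerve, fat and blood had medians below 0. Of 26 skeletal muscle markers, 4 lay above 0 with a median of -0.16, or -0.09 without the third control, and 6 had knockouts below all controls (23.1%, against 4.52%), among them Myl1 and Mybph, a myosin binding protein. Myl1 stood at -0.44, -1.10 and -0.70 in knockouts, against 0.59, 0.46, 0.36 and -0.38 in controls, and its 2 probes gave -1.68 and -0.31. The mean over 19 nerve and Schwann cell markers was -0.08, -0.16 and -0.08 in knockouts, against 0.26, 0.15, 0.00 and 0.15 in controls, without overlap. Adipocyte markers had a median of -0.25 over 16 genes and red blood cell markers one of -0.33 over 11, with 4 of each above 0. The share of such tissue in the samples was not tested.

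For the remaining lists, medians were 0.01 for 44 cell cycle genes, 0.01 for 61 cytosolic ribosomal proteins, 0.01 for 41 genes of ubiquitin ligases and autophagy, and 0.00 for 27 hypoxia targets. They were 0.09 for 33 immediate early genes, -0.12 for 24 clock genes, -0.08 for 29 nuclear receptors and coactivators, and -0.02 for 17 thioesterases. The lists of lymphatic, epicardial, and serum, liver and thymus markers had medians of -0.05, -0.09 and -0.07.

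The early values were set beside those at 10 weeks, which have knockouts and controls of their own. At 10 weeks limma called 134 genes (0.686%), 70 higher and 64 lower in knockouts. Of the 70, 55 had the same sign at 2 weeks (78.6%), and in 13 the 2-week knockouts lay above all 2-week controls (18.6%, against 4.26% of all genes). Of the 64, 57 had the same sign (89.1%), and in 21 the 2-week knockouts lay below all 2-week controls (32.8%, against 4.52%). The median log2 difference of the higher genes was 0.15 at 2 weeks and 0.97 at 10 weeks, and that of the lower genes was -0.21 at 2 weeks and -0.87 at 10 weeks. The genes were chosen for passing at 10 weeks, which favours large values at that time. The medians therefore do not measure a change of the effect between times.

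Some genes were close in size at both times. Myh7 gave 2.46 ± 0.31 at 2 weeks and 2.66 ± 0.28 at 10 weeks. C4bp-ps1 gave 2.64 and 3.09, Eif4ebp1 gave -0.87 and -0.72, and Tbx5 gave -0.87 and -0.85. All 4 genes passed at 10 weeks, and Myh7 passed at both times.

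Other genes were smaller at 2 weeks, though the test of the difference between times, given below, called 0 genes. Nmrk2, a kinase of the NAD salvage route, gave 1.14 at 2 weeks and 3.72 at 10 weeks, and Gsta2, a glutathione transferase, gave 0.16 and 3.79. Pdk4 gave 0.63 and 2.28, Acot2 gave 0.52 and 1.89, Fabp3 gave 0.22 and 1.03, Srebf1 gave 0.31 and 1.22, and Adssl1, a muscle enzyme of adenine nucleotide synthesis, gave 0.21 and 0.93. On the other side Mpped2, a phosphodiesterase, gave -0.48 and -1.40, Fam131a gave -0.57 and -1.12, and Cyp1a1 gave -1.29 and -2.17. Tbxa2r had opposite signs, 1.79 at 2 weeks and -1.19 at 10 weeks. Clec4f, a lectin of liver macrophages, gave -0.34 and 2.52.

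The difference between the effects at 10 and at 2 weeks was tested in the same fit. After adjustment 0 genes were called (0%), against 1331 at an unadjusted p under 0.05 (6.81%), and the smallest adjusted p was 0.0901. That value was reached by Tbxa2r, with a difference between effects of -2.98, and by Gsta2, with 3.63. The matrix and fibroblast medians were 0.47 and 0.50 at 2 weeks and 0.15 and 0.23 at 10 weeks, while those of the PPAR targets and of the mTORC1 and ATF4 genes were 0.02 and 0.01 at 2 weeks and 0.33 and 0.33 at 10 weeks. The differences between these medians were not tested.

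**Figure D5:**
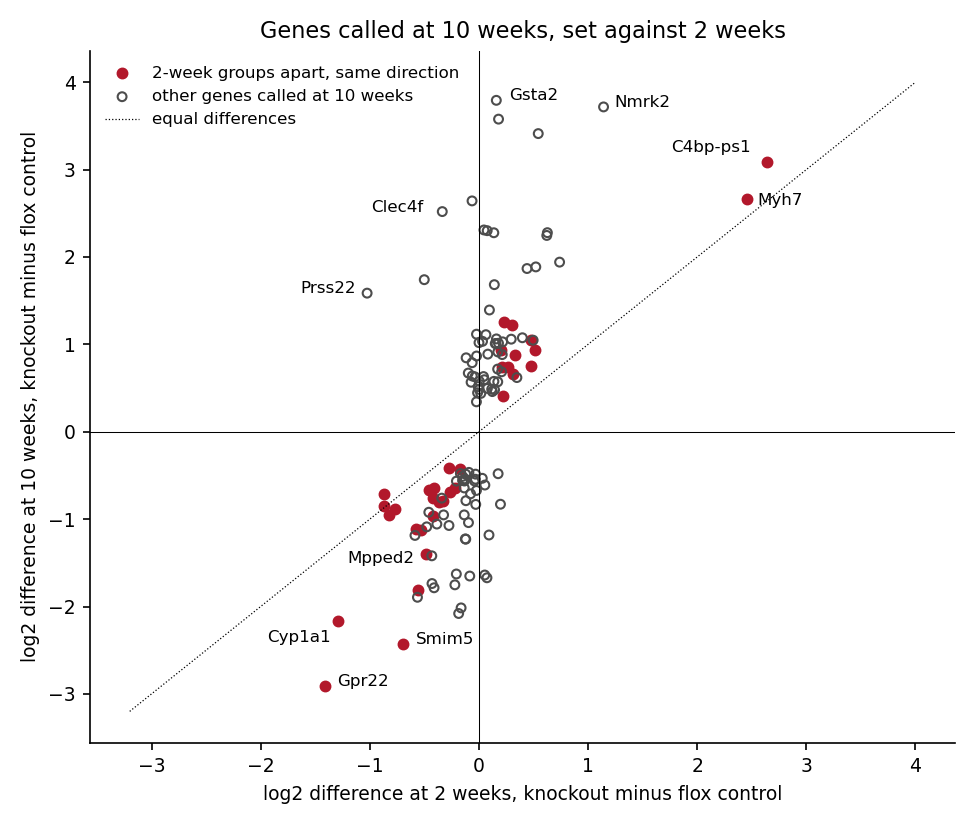
Each point is 1 of the 134 genes called at 10 weeks, with its log2 difference (knockout minus control) at 2 weeks on the x axis and that at 10 weeks on the y axis, and filled points are genes whose 2-week groups did not overlap in the same direction. Of the points, 13 filled ones are higher in knockouts and 21 lower, and Myh7 lies near equal size at both times while Gsta2 and Nmrk2 are far larger at 10 weeks.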

How the data were processed

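Heart RNA of 15 mice was measured on Agilent arrays of 2 colours, and the 7 arrays of 2 weeks are described. The deposited table holds values taken as log2 ratios, which the authors normalised and centred on each probe's median over the arrays, as the values show. Base, direction, background correction and scaling are not stated. The table has 41267 probes. Of these, 32664 carried 1 symbol in GEO's platform annotation and were averaged to 19532 genes, 45 carried several symbols, 8465 mouse probes carried none, and 93 were array controls. No batch, scan or signal over background was given, so the number of arrays limits the precision.

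Groups came from the labels. The test was limma 3.58.1 in R 4.3.3 (lmFit and eBayes, two-sided) on all 15 arrays as 4 group means, so the groups share 1 estimate of spread, with 11 residual and 2.07 prior degrees of freedom. P-values were adjusted by the Benjamini-Hochberg method over all genes or probes. Errors of differences are standard errors. A list is described by counts and its median beside those of all genes, and 1428 of 1515 list entries were measured in 45 lists. Columns of other samples numbered 0.

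The genes, probes and lists were chosen with earlier results of these data known. Named genes are those with the smallest p, the largest separated differences, leading and extreme list members, the fetal list, leading probes and the leading differences between times. Clone names are not named. In simulations of the 2-week comparison on 19532 genes with 200 changed, limma recovered 45.2% of 2-fold and 85.7% of 4-fold changes, with 2.87% and 5.34% of calls false. The simulated noise was normal and independent between genes, with each gene's estimated spread, and all changed genes of a run had the same fold. Recovery in the real data, where these conditions need not hold, was not measured.

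Alternatives covered array centring, quantile normalisation, the 2-week arrays alone, moderation, array weights, a block for replicate numbers, the choice of probe, fold and p thresholds, and leaving out each array. Adding unnamed probes and counting lists without 2 arrays were chosen after seeing the data. Promoters are from RefSeq, and Acsl1 is not reported here.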

Additional observations from a re-analysis of the deposited data

Results flagged for a closer look

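Among the 4 controls of 2 weeks, 174 sets of values (genes named and list means) were examined for an array far from the other three, and 12 were found. Chance gives about 1 in 20 such sets. Groups of 3 knockouts were not examined.

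For 8 genes a single control stood apart. Endod1 was 0.00 in replicate 1, against -0.54 to -0.45 in the other controls, and Nosip was 0.05 in replicate 1, against -0.21 to -0.17. Replicate 2 stood at 2.35 for Fkbp11, against 0.51 to 0.69 in the others, at -0.05 for Acvr2b, against 1.68 to 1.91, and at -0.02 for Pfkfb4, against -0.49 to -0.45. Replicate 3 stood at -0.36 for Adamts5, against -0.18 in the others, and at 0.58 for Hspa5, against -0.01 to 0.08. Replicate 4 stood at 0.04 for Fabp3, against -0.12 to -0.10.

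For 4 lists the mean of 1 control stood apart. Replicate 4 had 0.13 for fatty acid oxidation, against -0.12 to -0.09 in the others, 0.15 for pyruvate dehydrogenase and the citrate cycle, against -0.03 to -0.01, and 0.11 for sterol and fatty acid synthesis, against 0.00 to 0.02. Replicate 3 had -0.06 for smooth muscle and pericyte markers, against 0.04 to 0.06.

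The control spots of the array were outside the comparison of genes. Spot AT_nX_3 was higher in knockouts by 8.40 and spot AT_nX_5 by 6.84 on the log2 scale at 2 weeks, and by 8.11 and 6.59 at 10 weeks. No cause was tested.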

How the results depend on the processing

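The number of genes called at 2 weeks was 1 as reported. It was 0 after quantile normalisation, with trend and robust moderation, with genes of 1 probe only and against a fold threshold of 1.5, and 3 when each gene was represented by its most variable probe. At unadjusted p it was 1417 under 0.05 and 51 under 0.001. Leaving out 1 array gave 0 to 10 genes: 10, 8 and 9 without knockout 2 weeks replicates 1, 2 and 3, and 2 without flox control 2 weeks replicate 3. It gave 0 without flox control 2 weeks replicate 2 or 4, without flox control 10 weeks replicate 1, or without any 1 knockout of 10 weeks. Myh7 was called in 6 of these 15 fits, and its size stayed between 2.29 and 2.78 in all settings run. In the 2-week arrays alone the 1 called gene was Zfp653, and Myh7 had limma's adjusted p = 0.461.

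Called probes numbered 5 as reported, 1 after quantile normalisation, 3 in the 2-week arrays alone, 0 with trend and robust moderation, 0 against a fold threshold of 1.5, 2243 and 82 at unadjusted p under 0.05 and 0.001, and 8 with unnamed probes added. Leaving out 1 array gave 1 to 31, with 31, 22 and 23 without knockout 2 weeks replicates 1, 2 and 3.

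With the replicate number as a block, 0 genes and 0 probes were called, and Myh7 gave 2.42 (limma adjusted p = 0.0856). Deviations of same-numbered arrays correlated at 0.005, -0.034 and 0.003, and those of differently numbered arrays at -0.051 to 0.043. With so few pairs and no record of litter or batch per array, these values cannot decide whether the numbers pair the samples. The block and quantile normalisation left the genes called for the difference between times at 0, against 1331 at unadjusted p.

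Of 129 genes reported, 2 changed sign in some setting. Myh6, whose difference was small against its error, is not covered by this count, and its sign over the settings is not given. Snx12 gave -0.51 with its most variable probe. Gsta2 ran from -0.0198, without knockout 2 weeks replicate 1, to 0.3926, without knockout 2 weeks replicate 3, and gave -0.0052 without flox control 2 weeks replicate 4. A further 5 genes passed in some setting only, namely Zfp653, Bbs2, Prss55, Cd48 and Mast4. Among list medians, that of the interferon genes was 0.01 without flox control 2 weeks replicate 4 (0.11 as reported), of matrix proteases 0.23 without flox control 2 weeks replicate 2 (0.12), and of the mTORC1 and ATF4 genes -0.13 without knockout 2 weeks replicate 2 (0.01 as reported). Complement genes gave 0.06 without knockout 2 weeks replicate 3 (0.10), and clock genes -0.06 and red blood cell markers -0.20 without knockout 2 weeks replicate 1 (-0.12 and -0.33). The causes were not tested.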
